A study of Mus musculus with 6 samples.

Results

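The AP-1 factors and EGR genes described here were Fos, Fosb, Fosl1, Fosl2, Jun, Junb, Jund, Egr1 and Egr3, which are 9 of the 53726 genes in the RNA-seq count table. They were selected on low counts in both libraries that carried ScxCre, so the values of either library against Control chose them and are given as a description with no test. Achilles tendon of mice at 4 weeks of age was sequenced in 3 genotypes. Control mice were Dicer f/f and carried floxed Dicer alleles with no Cre. ScxHt mice were ScxCre/+ Knock In:Dicer +/+, with ScxCre in one Scx allele and intact Dicer. Dicer cKO mice were ScxCre/+ Knock In:Dicer f/f, with the same knock-in allele and floxed Dicer, so that ScxHt and Dicer cKO shared the altered Scx allele while Control and Dicer cKO shared the floxed Dicer alleles. ScxCre drives Cre from the Scx promoter and inactivates the Scx allele that carries it. Each genotype had 1 RNA-seq library and 1 small RNA-seq library from 1 mouse. With 1 library per genotype no difference could be tested, and differences between genotypes, animals and dissections cannot be told apart.

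AP-1 is a dimer of basic leucine zipper proteins. FOS proteins bind DNA only as partners of JUN proteins, while JUN proteins also pair with each other. EGR proteins are zinc finger factors that bind GC-rich sites, and EGR1 is a regulator of tendon differentiation and of collagen genes. Most of these genes are immediate early genes. Serum factors, stretch or cell stress switch them on within minutes through kinases that act on SRF, TCF and CREB at their promoters, and the mRNAs are short-lived.

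The promoters of Fos and Fosb are shown first, because these were the members with the lowest ratios to Control. Their reference sequence also holds matches to the sites of SRF and CREB. RefSeq start sites on GRCm38.p6 were found for Fos, Fosb, Fosl2, Jun, Junb and Jund. Fosl1, Egr1 and Egr3 had no entry. Windows from 500 bases before to 50 bases after the start site were searched on both strands, with the start site counted as 0. A CArG box, the site of SRF, lay in the windows of Fos and Fosb, so in 2 of 6 members, while 3.22% of 27025 genes held one. In both genes a CGTCA followed the CArG box after 7 bases. It is the core of the CRE, the site of CREB, read on the other strand. In the stretches below the CArG box and the CRE core are in capitals. They run from -319 to -275 in Fos, at chr12:85473571-85473615 on the plus strand, and from -282 to -238 in Fosb, at chr7:19310283-19310327 on the minus strand.
Fos: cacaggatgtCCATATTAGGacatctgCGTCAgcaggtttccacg
Fosb: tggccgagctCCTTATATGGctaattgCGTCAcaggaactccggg

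A CArG box and a CGTCA with 7 bases between them, on either strand, were found in 5 of the 27025 genes. These were Fos, Fosb, Egr2, Dusp5 and Sik3. The spacing was noticed in the sequences of Fos and Fosb and then counted, so the count is a description. Egr2 had 25, 17 and 32 reads in Control, ScxHt and Dicer cKO and Dusp5 had 30 in each, both under the count minimum used below. Fos held further CRE cores at -340, -129 and -66 and Fosb at -323 and -60, while Junb held one at -106 and Jun at -327 and -303. The stretches below show in capitals the core nearest to the start site in Fos, Fosb and Junb and both cores of Jun. They were read at chr12:85473809-85473843 (plus strand), chr7:19310086-19310120 (minus), chr8:84978835-84978869 (minus) and chr4:95052511-95052559 (minus).
Fos: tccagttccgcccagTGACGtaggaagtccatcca
Fosb: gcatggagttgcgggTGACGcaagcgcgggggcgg
Junb: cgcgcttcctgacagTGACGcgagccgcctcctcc
Jun: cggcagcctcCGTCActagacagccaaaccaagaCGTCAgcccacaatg

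The CRE core TGACG was in 4 of 6 member windows and in 31.1% of all genes. The full palindrome TGACGTCA, which contains it, was in 0 of the 6 windows and in 2.41% of genes. The AP-1 site TGANTCA was in 1 member window, that of Fos, and in 15.6% of genes. The EGR site GCGTGGGCG was in 0 member windows and in 0.947% of genes. A match of letters is not evidence of binding. The RefSeq start site of Jund lies 1210 bases before the GENCODE gene start and that of Fosl2 lies 671 bases after it, so windows at other start sites would hold other letters.

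The libraries held 16244232 (Control), 15769301 (ScxHt) and 14959399 (Dicer cKO) deposited read counts. Dicer1, the targeted gene, had 1919 reads in Control, 2025 in ScxHt and 1621 in Dicer cKO, and its ratio of normalized counts was 0.877 in Dicer cKO/Control. The ratio counts all reads of the gene, so it does not show reads over the floxed exon alone. Scx had 1055, 686 and 371 reads, with a ratio of 0.623 in ScxHt/Control and 0.365 in Dicer cKO/Control. All 13 tendon fibroblast markers were above the count minimum. Their summed RPKM (reads scaled by feature length and by the reads of the library) was 20381 in Control, 18760 in ScxHt and 11595 in Dicer cKO. Col1a1 alone gave 11832, 8948 and 6704 RPKM of these sums. Of the 13 markers, 4 had a ratio below 1 in ScxHt/Control (median log2 ratio 0.19). In Dicer cKO/Control all 13 were below 1 (median -0.88).

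Summed markers of other cell types differed between the libraries as well. Skeletal muscle markers summed to 6341, 4723 and 11663 RPKM in Control, ScxHt and Dicer cKO, Schwann cell markers to 93.3, 125 and 282, and erythroid markers to 244, 246 and 591. Macrophage markers summed to 97.2, 183 and 74.8, and cartilage and bone markers, with Bglap at 0 in each library, to 123, 167 and 55.2. Endothelial markers ranged from 116 to 157 and adipocyte markers from 562 to 701. Neutrophil markers reached at most 0.311 RPKM, and 6 of 9, including S100a9, Ly6g and Mpo, were at 0 in every library. Mitosis genes were higher in both libraries with ScxCre, at 36.6 and 35.3 RPKM against 17.0 in Control. All 3 of those above the minimum in Dicer cKO/Control and all 7 in ScxHt/Control were higher than the reciprocal of 0.60. The mitochondrial share of reads was 3.46% in Control, 2.12% in ScxHt and 4.44% in Dicer cKO. The part of these differences in the values below was not tested. In bulk tissue, fewer cells of a type and less RNA per cell cannot be told apart.

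Together the 9 genes had 10944 reads in Control, 4006 in ScxHt and 3066 in Dicer cKO. Fos and Fosb were low to a like extent in both libraries with ScxCre. Jun, Egr1 and Egr3 were also low in both. For Junb, Jund and Fosl2 the ScxHt value lay between those of Control and Dicer cKO. Fosl1 was nearly absent throughout.

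**Figure D1:**
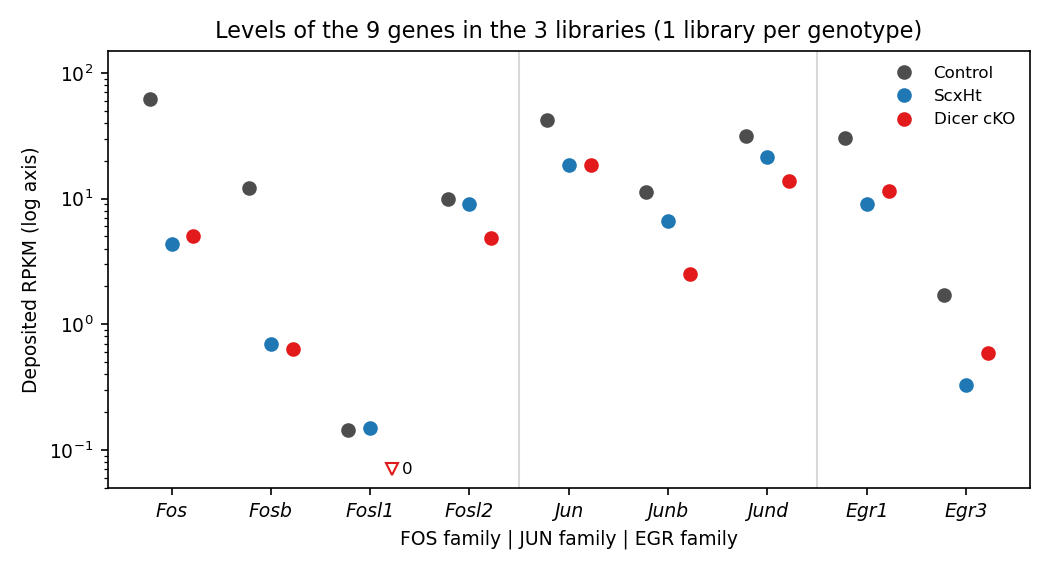
Deposited RPKM (log axis) of the 9 genes in the Control, ScxHt and Dicer cKO libraries, with 1 point per library and no error bars because each genotype had 1 library. Fos was at 61.6 in Control and at 4.37 and 5.06 in ScxHt and Dicer cKO, whereas Fosl2 was at 9.85 and 9.06 in Control and ScxHt and at 4.83 in Dicer cKO, and the open triangle marks Fosl1 with 0 reads in Dicer cKO.

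Ratios below are of counts normalized by DESeq2 size factors of the pair. Each has a 95% Clopper-Pearson interval that covers counting error only, not the spread between animals. A gene was called lower below 0.60 and higher above its reciprocal when its baseMean, the mean normalized count of the pair, was above 50. In Dicer cKO/Control 4.19% of 13404 genes were lower and 3.87% higher. In ScxHt/Control 4.71% of 13462 genes were lower and 3.03% higher. All 8 members above the minimum were lower in Dicer cKO/Control and 6 of 8 in ScxHt/Control, and 0 were higher in either. Since these comparisons chose the members, nothing is read from those counts. The median log2 ratio of the 8 members was -1.54 in Dicer cKO/Control and -1.59 in ScxHt/Control, beside -0.03 and 0.02 over all genes above the minimum.

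Fos (chr12:85473890-85477273, plus strand, GENCODE vM21 on GRCm38) encodes the founding FOS protein, which cannot bind DNA without a JUN partner. Its reads numbered 2355 in Control, 162 in ScxHt and 178 in Dicer cKO. The Control library stood alone, and the other 2 were close to each other. The ratio was 0.0659 (0.0558 to 0.0773) in ScxHt/Control and 0.0785 (0.0670 to 0.0914) in Dicer cKO/Control, the 4th and the 2nd lowest among the genes above the minimum.

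Fosb (chr7:19302696-19310051, minus strand), whose product also pairs with JUN proteins, had 1226 reads in Control, 68 in ScxHt and 59 in Dicer cKO. Among the genes above the minimum it had the lowest ratio in Dicer cKO/Control at 0.050 (0.0378 to 0.0649), and the 3rd lowest in ScxHt/Control at 0.0531 (0.0410 to 0.0679).

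Fosl2 (chr5:32135801-32157842, plus strand) encodes FRA-2, a FOS relative without the strong activation domain of FOS. It had 1549, 1383 and 700 reads in Control, ScxHt and Dicer cKO. ScxHt was near Control, with a ratio of 0.855 (0.795 to 0.920), while the ratio in Dicer cKO/Control was 0.469 (0.429 to 0.513). Fosl1 (chr19:5447547-5455946, plus strand), which encodes FRA-1, had 4 reads in Control, 4 in ScxHt and 0 in Dicer cKO. A count of 0 allows up to 3 reads, and no ratio is given.

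Jun (chr4:95049034-95052222, minus strand) is a gene of 1 exon whose product, c-JUN, is the main DNA-binding partner of FOS. Its reads numbered 2190 in Control, 926 in ScxHt and 888 in Dicer cKO. The libraries with ScxCre were again close to each other, at 0.405 (0.375 to 0.438) and 0.421 (0.389 to 0.455) of Control.

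Junb (chr8:84974484-84978718, minus strand) encodes a JUN protein that is a weaker activator and can oppose c-JUN. It had 424, 243 and 86 reads in Control, ScxHt and Dicer cKO. The 3 libraries were spaced apart, with a ratio of 0.549 (0.467 to 0.644) in ScxHt/Control and of 0.211 (0.165 to 0.266) in Dicer cKO/Control. Among the genes above the minimum, Junb was the 7th lowest in Dicer cKO/Control and the 420th lowest in ScxHt/Control.

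Jund (chr8:70698949-70700616, plus strand), which encodes the JUN protein that is least dependent on stimulation, had 856 reads in Control, 562 in ScxHt and 344 in Dicer cKO. The ratio was 0.629 (0.564 to 0.70) in ScxHt/Control and 0.417 (0.367 to 0.474) in Dicer cKO/Control. The ScxHt ratios of Junb and Jund lay just inside and just outside 0.60, and both intervals included it.

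Egr1 (chr18:34859823-34864984, plus strand) had 2217 reads in Control, 635 in ScxHt and 772 in Dicer cKO. Its ratio to Control was 0.274 (0.251 to 0.300) in ScxHt and 0.362 (0.333 to 0.393) in Dicer cKO, so ScxHt was the lowest library. Egr3 (chr14:70077203-70082614, plus strand), a close relative that binds the same kind of site, had 123, 23 and 39 reads in the same order. Its ratios were 0.179 (0.110 to 0.281) in ScxHt and 0.329 (0.224 to 0.476) in Dicer cKO, with wider intervals because of the low counts. Both EGR genes thus had their lowest count in ScxHt.

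**Figure D2:**
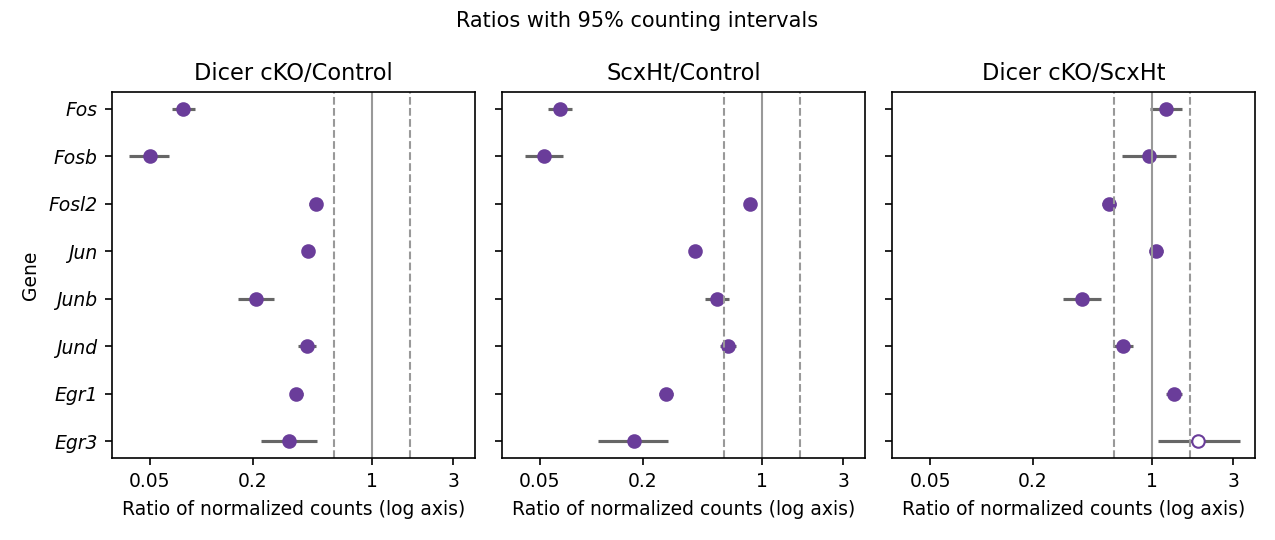
Ratios of normalized counts (log axis) of the 8 members with a ratio, with 95% counting intervals, in a panel for each pair of libraries. Dashed lines mark 0.60 and its reciprocal, and the open circle (Egr3) was under the minimum baseMean. In the right-hand panel Junb at 0.390 and Fosl2 at 0.558 lie below 0.60, while Fosb at 0.956 and Jun at 1.06 lie near 1.

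Between the 2 libraries with ScxCre, which differ in Dicer, the members did not share a direction. This ratio comes from the libraries whose low counts chose the members and is likewise a description. Of 7 members above the minimum, 2 were lower, 0 were higher and 4 had a ratio below 1, beside 5.68% lower and 7.68% higher among 13455 genes. Junb had a ratio of 0.390 (0.301 to 0.501) and Fosl2 of 0.558 (0.509 to 0.611). Jund was at 0.675 (0.588 to 0.773), above 0.60 but with an interval below 1. Jun at 1.06 (0.963 to 1.16), Fos at 1.21 (0.973 to 1.51) and Fosb at 0.956 (0.663 to 1.38) had intervals that included 1. Egr1 was at 1.34 (1.21 to 1.49), with more normalized counts in Dicer cKO than in ScxHt. The median log2 ratio was -0.06 over the members and -0.03 over all genes. By these intervals, which cover counting error only, Jun, Fos and Fosb had a like low level in both libraries. Junb, Jund and Fosl2 were lower in Dicer cKO than in ScxHt, where Fosl2 was near Control. Of the tendon fibroblast markers 13 of 13 were also below 1 and 8 lower in Dicer cKO/ScxHt. In ScxHt/Control, where all 3 of these members were below 1, 4 of 13 markers were below 1 and 0 were lower (median log2 ratio 0.19). The part of the tendon cell share in the values of Junb, Jund and Fosl2 was not tested.

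Levels per length gave the make-up of each family. In Control the FOS genes summed to 83.7 RPKM and the JUN genes to 85.2, a FOS to JUN ratio of 0.983. In ScxHt they summed to 14.3 and 46.5, and in Dicer cKO to 10.5 and 34.9, so the ratio was 0.307 and 0.302. Fos made up 73.6% of the FOS sum in Control, 30.6% in ScxHt and 48.1% in Dicer cKO. The share of Fosl2 was 11.8% in Control, 63.5% in ScxHt and 45.9% in Dicer cKO. By RPKM the FOS sum was thus mostly Fos in Control, mostly Fosl2 in ScxHt and about equal parts of both in Dicer cKO. The lengths behind these RPKM values were 2352 bases for Fos, 6242 for Fosb and 9682 for Fosl2. They are close to the length of all exons of the gene joined. Lengths of single transcripts could give other shares and other FOS to JUN ratios.

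Within the JUN sum the shares differed less between libraries. Jun held 49.6% in Control, 39.6% in ScxHt and 53.3% in Dicer cKO, and Jund held 37.1%, 46.0% and 39.5%. Junb held 13.3%, 14.4% and 7.16%. The member with the highest RPKM was Fos in Control at 61.6, Jund in ScxHt at 21.4 and Jun in Dicer cKO at 18.6. The EGR sum was 32.2, 9.31 and 12.1 RPKM, with 94.7%, 96.4% and 95.1% of it from Egr1. With 1 library per genotype the order of levels between genes has no measured spread.

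**Figure D3:**
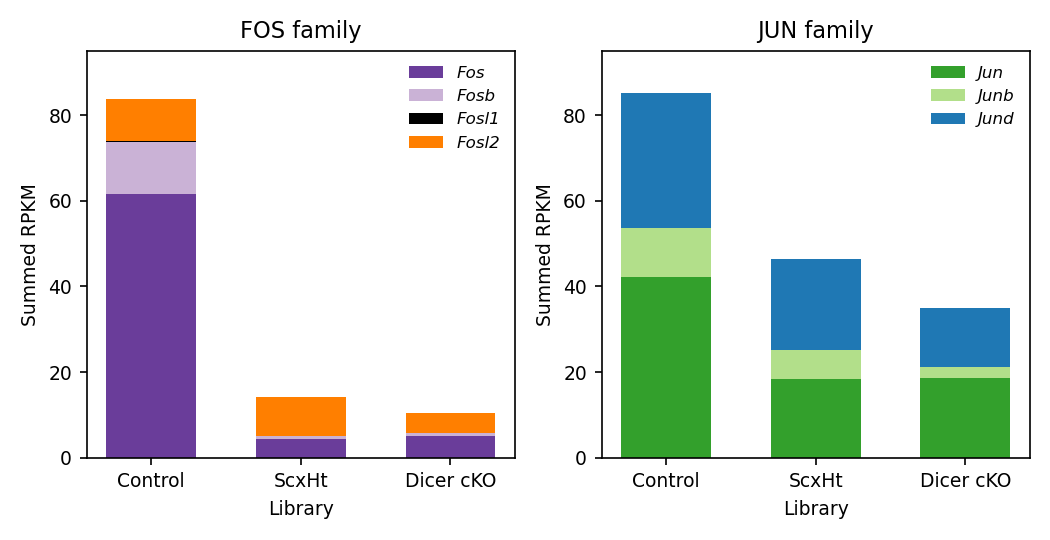
Summed RPKM of the FOS genes (left) and the JUN genes (right) in each library, with the part of each gene stacked and no error bars because each genotype had 1 library. The FOS sum was 83.7 in Control, 14.3 in ScxHt and 10.5 in Dicer cKO, with Fosl2 the largest part in ScxHt, and the JUN sum was 85.2, 46.5 and 34.9.

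Set against all 13149 genes above the minimum in both pairs with Control, 0.852% (112 genes) were lower in both. The members lower in both were Fos, Fosb, Jun, Junb, Egr1 and Egr3. The 5 other genes nearest to the members' median log2 ratios in the 2 comparisons, by Euclidean distance over the 3 libraries, were RP23-319P12.4 (distance 0.16), Errfi1 (0.21), Atf3 (0.21), Btg2 (0.22) and Ddit4 (0.23). Errfi1, a feedback inhibitor of EGF receptor signalling, had 2312, 910 and 715 reads in Control, ScxHt and Dicer cKO. Atf3, a stress-induced bZIP factor that can pair with JUN proteins, had 267, 83 and 97. Btg2, an early antiproliferative gene, had 1077, 366 and 416, and Ddit4, a stress-induced inhibitor of mTOR signalling, had 779, 235 and 276. These 4 were picked by their nearness to the members, so both libraries with ScxCre had to be below 0.60 of Control.

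**Figure D4:**
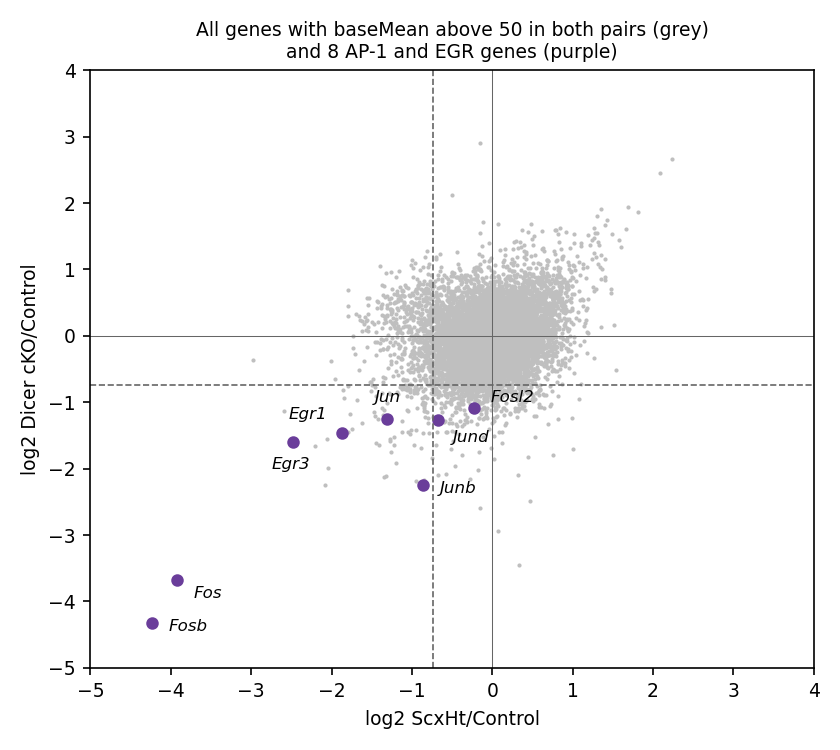
The log2 ratio in Dicer cKO/Control against that in ScxHt/Control for the genes with a baseMean above 50 in both pairs (grey; 3 lie outside the axes) and 8 members (purple), with dashed lines at a ratio of 0.60. The comparisons share the Control library. Fos and Fosb lie apart at the lower left, at -3.92 (ScxHt/Control) and -3.67 (Dicer cKO/Control) for Fos and at -4.23 and -4.32 for Fosb.

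Other genes of the pathway were taken from 7 lists that were chosen with earlier results of these data known, and their counts are descriptions. At the mRNA level the SRF, TCF and CREB factors were near Control, and the activity of their proteins was not measured. Among 9 SRF, TCF and CREB factors, 0 were lower or higher in either comparison with Control, and the median log2 ratio was -0.12 in Dicer cKO/Control and -0.13 in ScxHt/Control. Among 23 genes of the MAP kinase cascade, 0 passed in Dicer cKO/Control (median 0.07) and 1, Rps6ka5 with 405 reads in Control and 253 in ScxHt, was lower in ScxHt/Control (median -0.02). It is named after its value was seen.

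Of the other AP-1 and EGR relatives, 2 of 10 were lower and 1 higher in Dicer cKO/Control, and 2 of 9 were lower in ScxHt/Control. Atf3 and Maff, a small MAF protein, were lower in both, at 0.377 and 0.592 in Dicer cKO/Control and at 0.298 and 0.599 in ScxHt/Control, so Maff lay only just below 0.60. The one higher gene, Mafa, named after its value was seen, had 47, 49 and 100 reads in Control, ScxHt and Dicer cKO. Egr2 was under the minimum, with a ratio of 1.33 (0.763 to 2.34) in Dicer cKO/Control, and Egr4 had 0 reads in each library.

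Feedback inhibitors, which are induced by the same signals and shut them off, were lower for 3 of 17 in Dicer cKO/Control and for 6 of 16 in ScxHt/Control, with median log2 ratios of -0.42 and -0.41. Zfp36, whose product binds AU-rich elements and speeds the decay of early mRNAs, had 635, 264 and 142 reads in Control, ScxHt and Dicer cKO. Dusp1, a phosphatase of MAP kinases, had 2832, 720 and 686, and Spry4, an inhibitor of receptor kinase signalling, had 1175, 684 and 653. These 3 were lower in both comparisons.

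Other immediate early genes had the largest share of lower genes among the 7 lists. Of 26 above the minimum 16 were lower and 0 higher in Dicer cKO/Control (median -0.94), and of 27, 12 were lower and 2 higher in ScxHt/Control (median -0.70). Lower in both were 9, and the 5 with the lowest ratio in Dicer cKO/Control were Nr4a1, Socs3, Errfi1, Csrnp1 and Klf2. The orphan nuclear receptor gene Nr4a1 had 1251 reads in Control, 308 in ScxHt and 254 in Dicer cKO. Socs3, a feedback inhibitor of cytokine receptors, had 588, 242 and 130. Csrnp1 had 140, 35 and 46 reads and Klf2, a Krüppel-like factor known from endothelium, 736, 444 and 258. Nr4a1 and Csrnp1 were low to a like extent in both libraries, as Fos was, while for Socs3 and Klf2 ScxHt lay between Control and Dicer cKO, as for Junb. The 2 genes higher in ScxHt/Control, named after their values were seen, were Gadd45b with 22, 87 and 29 reads and Klf10 with 582, 1136 and 621.

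Genes known as AP-1 targets were lower for 3 of 11 in Dicer cKO/Control (median -0.28). In ScxHt/Control 1 of 12 was lower and 1 higher (median 0.08). Genes linked to EGR1 in tendon, among them Col1a1, Col1a2 and Scx, were lower for 7 of 13 in Dicer cKO/Control (median -0.80). In ScxHt/Control 0 of 13 were lower and 1 was higher (median 0.11). This list shares Scx, Tnmd, Fmod, Col1a1, Col1a2 and Dcn with the tendon fibroblast markers.

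**Figure D5:**
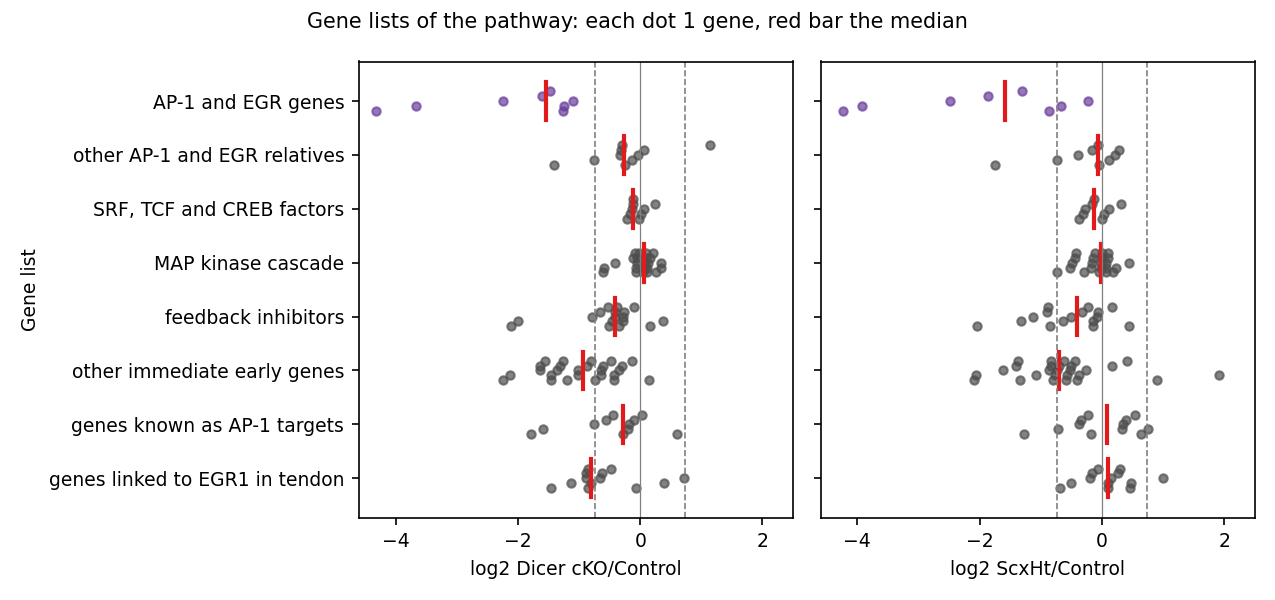
The log2 ratio in Dicer cKO/Control (left) and ScxHt/Control (right) of each gene above the minimum in the AP-1 and EGR genes (purple) and 7 pathway lists (grey), with the median as a red bar and dashed lines at 0.60 and its reciprocal. Other immediate early genes had medians of -0.94 and -0.70, SRF, TCF and CREB factors of -0.12 and -0.13, and the EGR1-linked tendon genes of -0.80 and 0.11.

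The members share a compact structure that the choice did not use. By GENCODE vM21, 8 of 9 spanned at most 10000 bases, against 22.3% of 11331 genes, and their median span was 5162 bases against 26650. Jun and Jund have 1 exon, Junb has 2, Egr1 and Egr3 have 3, Fos, Fosl1 and Fosl2 have 4 and Fosb has 5. The longest 3' UTR of all 9 held the pentamer ATTTA, the core of AU-rich elements that mark short-lived mRNAs, as did 73.5% of 10961 genes. Fos had 4 copies (4.91 per kilobase), Jun 4 (3.24), Junb 2 (4.12) and Egr3 7 (2.65), while Fosb had 1 (0.434). Fosl2 had 8 (1.72), Egr1 2 (1.64), Fosl1 1 (1.57) and Jund 1 (1.88). At least 3 copies were in 4 of 9 members and in 42.6% of genes. The member median was 1.88 per kilobase and that of all genes 1.29.

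Some members overlap a gene on the other strand, and the strand setting of the counting is not given in the sources used here. Prdx2 overlaps Junb and had 663, 662 and 653 reads in Control, ScxHt and Dicer cKO, while Junb had 424, 243 and 86. The antisense gene Junos overlaps Jun and had 12, 27 and 32 reads, few beside those of Jun. Ccdc85b overlaps Fosl1, and Gm11175 overlaps Jund.

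Since Dicer makes mature miRNAs, the longest 3' UTRs were searched for sites that match bases 2 to 8 of a miRNA followed by A (8mer sites), for 111 miRNA genes with at least 1000 reads in the Control small RNA-seq library and a RefSeq mature sequence. Both arms were searched because the counts do not tell them apart. At least 1 site lay in 8 of 9 members, with 12 positions in Fosl2, 7 in Egr3, 5 each in Fos and Fosb, 3 in Egr1, 2 in Fosl1, 1 each in Jun and Junb and 0 in Jund. The share of all genes with at least 1 such site was not counted, so nothing is read from the number of members. The searched 3' UTR was longest in Fosl2 (4653 bases) and Egr3 (2645) and shortest in Junb (485) and Jund (533). The 6 miRNA genes with a site and the most Control reads carry the mature sequences below, with the seed (bases 2 to 8) in capitals. Mirlet7c-1 (chr16:77599672-77599693, plus strand), Mirlet7c-2 (chr15:85706616-85706637, plus) and Mirlet7b (chr15:85707325-85707346, plus) share the let-7 seed. Mir199a-1 (chr9:21496537-21496559, minus) and Mir199a-2 (chr1:162217844-162217866, plus) give the same product, and Mir16-1 lies at chr14:61631936-61631957 (minus).
let-7c-5p: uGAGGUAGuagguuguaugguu
let-7b-5p: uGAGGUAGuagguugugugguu
miR-199a-5p: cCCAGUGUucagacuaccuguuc
miR-16-5p: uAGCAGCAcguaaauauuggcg

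The let-7 site CTACCTCA was in the 3' UTR of Egr3 and of 4.45% of genes. The other arm (3p) of these let-7 genes had sites in Fosl2. The site was TTGTATAA for Mirlet7c-2 and Mirlet7b, in 6.55% of genes, and TTGTACAA for Mirlet7c-1, in 4.84%. Mirlet7c-2 had 883070 small RNA reads in Control, 712039 in ScxHt and 595718 in Dicer cKO, a normalized ratio of 0.773 in Dicer cKO/Control, and Mirlet7b had 532838, 483049 and 362472 (0.780). The miR-199a-5p site ACACTGGA was in Junb and 6.12% of genes, and Mir199a-2 had 559555, 362563 and 361918 reads (0.741). The Mirlet7c-1 and Mir199a-1 values were nearly the same as those of their twin genes, whose mature products they share. The miR-16-5p site TGCTGCTA was in Fosl2 and 5.37% of genes, and Mir16-1 had 489990, 383692 and 346068 reads (0.810). In ScxHt/Control the ratio was 0.908 for Mirlet7c-2, 1.02 for Mirlet7b, 0.73 for Mir199a-2 and 0.882 for Mir16-1. In Dicer cKO/ScxHt the ratios were 0.837, 0.75, 0.998 and 0.902 in the same order. Small RNA counts were also scaled by size factors of the pair. Each ratio is thus relative to the other small RNA features, and a fall shared by most of them would not show. Of the 53 miRNA genes with a site in a member, 33 had a ratio below 1 in Dicer cKO/Control and 20 above 1, from 0.616 to 2.47. Twin genes that share a mature product were counted separately. The split over all searched miRNA genes was not counted, so nothing is read from these counts. The 5 miRNA genes with a site in Fos, named after their values were seen, lay on both sides of 1. Mir101a was at 0.881, Mir146b at 0.691 and Mir221 at 0.683, while Mir322 was at 1.14 and Mir335 at 2.46. A site is a match of letters and was not tested as a target.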

How the data were processed

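RNA-seq and small RNA-seq were made from total RNA of Achilles tendon of 3 genotypes, with 1 library each. The authors used TopHat and Bowtie2 to map trimmed paired-end reads (GRCm38) and deposited raw read counts per gene from HTSeq, and the deposited files also hold RPKM values. Versions, annotation and strand setting are not given in the sources used here. Of 54189 lines, 463 that repeated a gene were dropped, which touched 1 member (Jund). Counts of each pair were divided by DESeq2 1.42.0 size factors (R 4.3.3), and genes with a baseMean above 50 were called below 0.60 or above 1.67, as in the study's methods, without its shrinkage. Intervals are Clopper-Pearson at 95% (scipy 1.17.1) and cover counting error only. They treat reads as independent molecules, which PCR reads are not, so they can be too narrow even for counting error. RPKM served for levels between genes. The ratio script was tested on simulated data. The members, gene lists and markers were chosen with earlier results of these data known. Named genes were all 9 members, Dicer1 and Scx, from each list up to 5 lower in both comparisons with Control, the 5 nearest profiles and the 6 most abundant miRNA genes with an 8mer site. Alternatives were edgeR 4.0.16 TMM, total counts, factors over 3 libraries, RPKM, other minimums and thresholds, a pseudocount of 1 and repeated lines kept. One gene that the naming rule picks is not reported here.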

Additional observations from a re-analysis of the deposited data

How the results depend on the processing

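All 202 values of single members under the alternative settings stayed within their counting interval. Other minimums change which genes are counted and not their ratios, so the values under them had to stay. All 8 members in Dicer cKO/Control and 6 in ScxHt/Control kept their call under each scaling tried. In ScxHt/Control 5 members were lower with a minimum baseMean of 200, with ratio thresholds of 0.5 and 2, or when the whole interval had to pass, the last 2 without Junb. In Dicer cKO/ScxHt the count of members below 0.60 went from 2 to 1 with a minimum baseMean of 200, with ratio thresholds of 0.5 and 2, and when the whole interval had to pass. With no minimum baseMean it was 3, and 1 member, Egr3 at 1.87 (1.09 to 3.28), was above the reciprocal of 0.60. In Dicer cKO/Control the count below 0.60 was 9 with no minimum and 7 with a minimum of 200. Fosl1, with 0 reads in Dicer cKO, is the member added with no minimum. Scaling by total counts moved the median log2 ratio of all genes in ScxHt/Control from 0.02 to 0.12, and the split of lower and higher genes from 634 and 408 to 456 and 640. It moved the split from 561 and 519 to 438 and 667 in Dicer cKO/Control and from 764 and 1033 to 962 and 897 in Dicer cKO/ScxHt. The causes were not tested. No paired analysis was possible because each genotype had 1 library, and for the same reason no replicate could be left out. Depth limited Egr3, with 23 to 123 reads, and Fosl1, with at most 4, the most.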
